A study of Homo sapiens with 6 samples.

Results

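The set examined here holds 7 genes: the overexpressed RNA-binding protein gene RBM24, its paralog RBM38, the p53 family genes TP63 and TP73, and CDKN1A, MDM2 and MDM4. They were chosen by symbol, as RBM24 and RBM38 together with mRNAs of the p53 family circuit that these proteins are reported to bind or act on, and each has 1 row in both the count table and the FPKM table. The count table holds 32353 genes, of which 17887 passed the filter on low counts, all 7 members among them. The libraries are of CAL27 cells, an established human line of tongue squamous cell carcinoma, in 2 groups: cells overexpressing RBM24 (3 libraries, called RBM24 below) and cells given a control plasmid (3 libraries, called Ctrl below). The labels give neither the time after plasmid delivery, nor the promoter of the plasmid, nor the origin of the replicates, and since these may not be independent cultures, each p-value here speaks only of library-to-library spread, part of which may be technical. The libraries held between 53558773 and 68804210 gene counts. Ctrl library 1 stood apart on the first principal component of all genes (33.4, against -15.4 to 4.95 in the other libraries), and values without it are given for the other 6 genes.

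RBM24 and RBM38 (also called RNPC1) each carry a single RNA recognition motif and bind GU-rich and AU- or U-rich stretches of mRNA, often in the 3′ untranslated region (UTR), where they alter the stability or translation of the message. RBM38 is itself a target of p53, and its reported mRNA targets include CDKN1A, TP63, TP73 and MDM2; RBM24 is best known as a splicing regulator of heart and skeletal muscle. p63, from TP63, is the lineage factor of squamous epithelium, p73 is its relative with roles in apoptosis and ciliated cells, p21, from CDKN1A, stops the cell cycle by inhibiting cyclin-dependent kinases, and MDM2 and MDM4 are the ubiquitin ligase and its partner that hold p53 in check.

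With RBM24 overexpressed 40.5-fold, none of the other 6 genes passed the test. Their fold changes lay between 0.935 for MDM4 and 1.15 for TP73, and every bound of their 95% intervals lay between 0.852-fold and 1.30-fold. In the same fit, 275 of the 17887 genes tested were called at an adjusted p under 0.05, which is 1.54% of them (0.855% higher and 0.682% lower). Of the other 6 genes, 5 had a negative and 1 a positive log2 change, with a median of -0.06 beside -0.00 for all genes tested. Their ranges of CPM (counts scaled to library size) overlapped between the groups in all 6, whereas 18.1% of all genes tested had ranges that did not overlap (9.53% with RBM24 libraries higher and 8.62% with them lower).

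**Figure D1:**
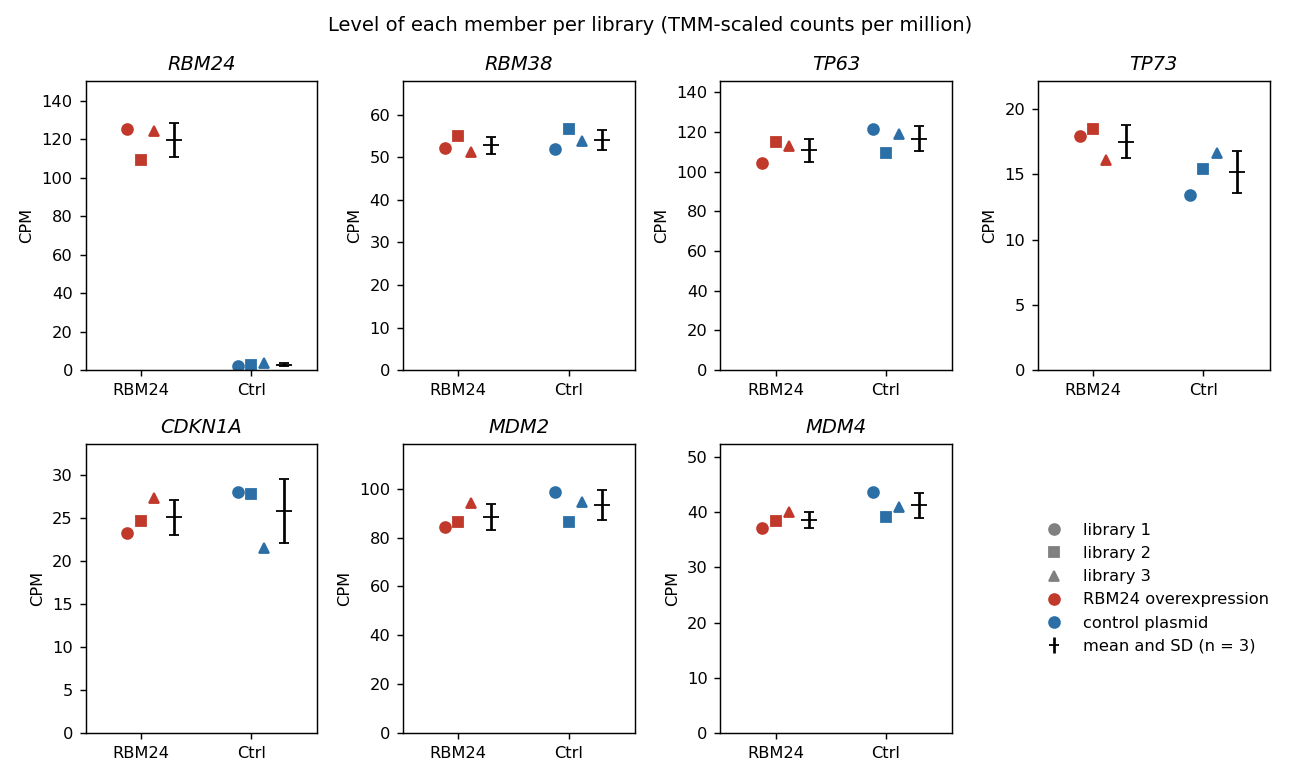
CPM (counts scaled to a common library size with TMM factors; linear axes from 0) of each gene in each library, with RBM24 libraries in red and Ctrl libraries in blue, symbols for library numbers, and bars for the mean and SD of 3 libraries. RBM24 is at 109 to 125 CPM in the RBM24 libraries and at 2.35 to 3.50 in the Ctrl libraries, and the ranges of the other 6 genes overlap.

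The gene under test, RBM24 (ENSG00000112183.15), lies on the plus strand of chromosome 6 from 17281346 to 17293875 (GRCh38, as are all gene positions here), and its own level checks the labels. It stood at 125, 109 and 124 CPM in RBM24 libraries 1 to 3, against 2.35, 2.96 and 3.50 CPM in Ctrl libraries 1 to 3. Every RBM24 library lay far above every Ctrl library, and the lowest of them was RBM24 library 2. The log2 fold change was 5.34 (95% interval 5.13 to 5.55; edgeR quasi-likelihood test, Benjamini-Hochberg adjusted p = 2.16e-15), the smallest p of all genes tested. By FPKM, RBM24 ranked between 1214 and 1397 among 16520 protein-coding genes in the RBM24 libraries, and between 10359 and 10974 in the Ctrl libraries. Counts per gene do not separate the transcript of the plasmid from that of the cells' own gene, and in RNA of a whole culture more cells with the plasmid and more RNA per cell cannot be told apart.

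RBM38 (ENSG00000132819.17; chromosome 20, 57391407 to 57409333, plus strand), the paralog with a closely similar RNA recognition motif, was well expressed in both groups. It stood at 52.1, 55.0 and 51.3 CPM in RBM24 libraries 1 to 3, against 51.8, 56.6 and 53.7 CPM in Ctrl libraries 1 to 3. The ranges nearly coincided, and in both groups library 2 was the highest. The log2 fold change was -0.03 (95% interval -0.15 to 0.08; edgeR adjusted p = 0.855), and -0.06 without Ctrl library 1 (adjusted p = 0.701). The longest run of identical bases in annotated transcripts of RBM24 and RBM38 was 23 bases, far shorter than the 150-nt reads named in the labels.

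The balance of the paralogs was read within each library. Per length, RBM24 was 1.89, 1.57 and 1.91 times RBM38 in RBM24 libraries 1 to 3, against 0.0354, 0.0410 and 0.0513 times in Ctrl libraries 1 to 3 (FPKM ratios). An exact permutation test of the log2 ratio gave p = 0.1 (two-sided), the smallest that 3 against 3 libraries allow. RBM24 made up 64.0 ± 2.60% of the summed FPKM of both genes in RBM24 libraries, against 4.08 ± 0.744% in Ctrl libraries (SD, n = 3 each). The summed FPKM was 51.0 ± 1.69 in RBM24 libraries and 19.1 ± 1.09 in Ctrl libraries (SD, n = 3 each). RBM24 was the more abundant mRNA of the pair in every RBM24 library, and RBM38 in every Ctrl library.

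**Figure D2:**
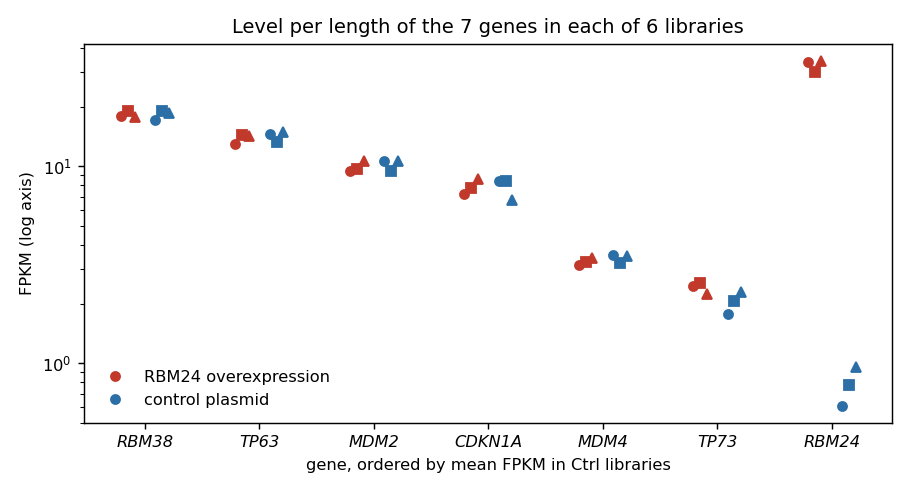
FPKM (log axis) of the 7 genes in each library, RBM24 libraries in red and Ctrl libraries in blue, ordered by the mean in Ctrl libraries. RBM24 is the highest of the 7 in RBM24 libraries and the lowest in Ctrl libraries, and the other genes keep an order from RBM38 (17.3 to 19.1 over all libraries) down to TP73 (1.78 to 2.56).

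The other 6 genes had well-separated levels per length. Over all 6 libraries the FPKM ranges were 17.3 to 19.1 for RBM38, 13.0 to 14.9 for TP63, 9.42 to 10.7 for MDM2, 6.74 to 8.57 for CDKN1A, 3.14 to 3.56 for MDM4 and 1.78 to 2.56 for TP73. No neighbours in this order overlapped, and in the Ctrl libraries RBM24 came last, at 0.61 to 0.96. These levels rest on 1 length per gene, which counts and FPKM together put near 8.08 kb for TP63, 7.30 kb for TP73, 8.97 kb for MDM2, 11.9 kb for MDM4, 3.24 kb for CDKN1A, 2.91 kb for RBM38 and 3.70 kb for RBM24. Where cells use short isoforms, such as those of TP63 and TP73 that lack the transactivation domain, FPKM understates the level, and gene counts cannot tell isoforms apart.

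The 3′ UTRs of the target mRNAs were searched for 2 words, on the mRNA strand, with overlapping matches counted: GUGUG, which RBM24 and RBM38 both prefer in binding assays in vitro, and AUUUA, the core of AU-rich elements. The windows of 30 bases below are those with the most GUGUG in each 3′ UTR (GENCODE 29 transcripts, written as DNA, 5′ to 3′, all on the plus strand of GRCh38), shown because they hold the word both proteins are known to prefer. Where windows tied, the first in the 3′ UTR is shown. This was so in CDKN1A, TP73 and RBM38, whose windows hold the word 1 time. Capitals mark the word.
CDKN1A, chr6:36685870-36685899: tagtctcagtttGTGTGtcttaattattat
TP63, chr3:189896220-189896249: atGTGTGgattgcctctgaaaaGTGTGtat
TP73, chr1:3733133-3733162: cctctccttcctGTGTGtccaaaactgcct
MDM2, chr12:68840469-68840498: taaagagaaaatGTGTGaaagatttagttt
MDM4, chr1:204554094-204554123: tgtaacattttGTGTGTGtcaattcaatgc
RBM38, chr20:57408324-57408353: gcgcagtctgagGTGTGaggacacggcctc

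The word GUGUG is common. It occurred 2 times in the 1537 bases of the CDKN1A 3′ UTR, 3 times in the 2777 bases of TP63, 4 times in the 3122 bases of TP73, 1 time in the 958 bases of MDM2, 10 times in the 8438 bases of MDM4 and 2 times in the 1487 bases of RBM38. Among 3′ UTRs of protein-coding genes that were at least as long, cut to the same length from their start, between 56.9% and 67.6% held at least as many. The members were not left out of this comparison, and for MDM4 it held only 253 3′ UTRs. The search covered 1 transcript per gene. For MDM2 its 3′ UTR of 958 bases is short beside the length near 8.97 kb that counts and FPKM imply, so other 3′ UTRs of MDM2 were not searched. In CDKN1A the window lies 70 bases into the 3′ UTR and has an AUUUA a few bases further on, in capitals in the next window, which is shown because RBM38 and HuR are reported to bind AU- and U-rich stretches of this 3′ UTR.
CDKN1A, chr6:36685898-36685927: atttgtgttttaATTTAaacacctcctcat

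RBM24 differed from the others in these words. Its own 3′ UTR of 1756 bases held 0 GUGUG, where 85.1% of 3′ UTRs of that length held at least 1, and 13 AUUUA, a number that 0.912% of them reached. The first window with the most AUUUA, shown as a part of that AU-rich UTR where the word is densest, is below. The sources used here do not say whether the plasmid carries this UTR.
RBM24, chr6:17293097-17293126: gagtcatATTTAaaactATTTAttagtgac

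TP63 (ENSG00000073282.14; chromosome 3, 189631416 to 189897279, plus strand) was the more abundant of the 2 p53 family genes measured here. It stood at 104, 115 and 113 CPM in RBM24 libraries 1 to 3, against 121, 109 and 119 CPM in Ctrl libraries 1 to 3. RBM24 library 1 was the lowest and Ctrl library 1 the highest, and the groups overlapped. The fitted log2 change was -0.07 (95% interval -0.19 to 0.04; edgeR adjusted p = 0.621), and -0.04 without Ctrl library 1 (adjusted p = 0.825).

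TP73 (ENSG00000078900.15; chromosome 1, 3652520 to 3736201, plus strand) had the largest difference after RBM24. It stood at 18.0, 18.5 and 16.1 CPM in RBM24 libraries 1 to 3, against 13.5, 15.5 and 16.7 CPM in Ctrl libraries 1 to 3. The groups overlapped, since RBM24 library 3 lay below Ctrl library 3. Its log2 fold change was 0.20 (95% interval 0.03 to 0.38), with an unadjusted p of 0.0246 and a Benjamini-Hochberg adjusted p of 0.290 in edgeR, so that it did not pass; 13.0% of all genes tested had an unadjusted p under 0.05. Without Ctrl library 1, the lowest in TP73, the log2 fold change was 0.12 (adjusted p = 0.567). TP73 shares 242 bases with the opposite-strand gene WRAP73, which had 1793 to 2524 counts per library against 740 to 1241 for TP73, and the sources used here do not say whether the counting used strand; WRAP73 itself had a log2 fold change of 0.04 (edgeR adjusted p = 0.840).

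The balance of p63 to p73 mRNA was read within each library. The FPKM ratio of TP63 to TP73 was 5.24, 5.63 and 6.34 in RBM24 libraries 1 to 3, against 8.18, 6.41 and 6.46 in Ctrl libraries 1 to 3. Ctrl library 1 was the highest by far. The groups did not overlap, with or without it, but RBM24 library 3 and Ctrl libraries 2 and 3 lay close together. An exact permutation test on the log2 ratio gave p = 0.1 (two-sided), the smallest that 3 against 3 libraries allow, and 0.2 after adjustment over the 4 ratios compared (with RBM24 to RBM38, MDM2 to MDM4 and CDKN1A to MDM2), so no call can be made.

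CDKN1A (ENSG00000124762.14; chromosome 6, 36676460 to 36687339, plus strand), the p21 gene, stood at 23.2, 24.7 and 27.3 CPM in RBM24 libraries 1 to 3, against 28.0, 27.8 and 21.5 CPM in Ctrl libraries 1 to 3. The spread among Ctrl libraries was wider than the difference between the groups, with Ctrl library 3 the lowest of all 6. In edgeR the log2 fold change was -0.04 (95% interval -0.23 to 0.15; edgeR adjusted p = 0.905). Its sign turned with the library left out: 0.01 without RBM24 library 1, 0.02 without Ctrl library 1, 0.02 without Ctrl library 2 and -0.16 without Ctrl library 3, none of them past the threshold (adjusted p = 0.390 to 0.982). The antisense lncRNA gene DINOL, which overlaps CDKN1A, had between 0 and 2 counts per library.

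MDM2 (ENSG00000135679.26; chromosome 12, 68808176 to 68850686, plus strand) stood at 84.2, 86.3 and 94.4 CPM in RBM24 libraries 1 to 3, against 98.7, 86.5 and 94.5 CPM in Ctrl libraries 1 to 3. The groups overlapped, with RBM24 library 1 the lowest and Ctrl library 1 the highest. The fitted log2 change was -0.08 (95% interval -0.20 to 0.05; edgeR adjusted p = 0.615), and -0.04 without Ctrl library 1 (adjusted p = 0.864). The opposite-strand gene CPM, encoding carboxypeptidase M, overlaps MDM2 but had 110 to 168 counts per library, against 4653 to 5947 for MDM2.

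MDM4 (ENSG00000198625.13; chromosome 1, 204516379 to 204558120, plus strand), the partner of MDM2 that blocks p53 without strong ligase activity of its own, stood at 37.2, 38.5 and 40.0 CPM in RBM24 libraries 1 to 3, against 43.7, 39.2 and 40.9 CPM in Ctrl libraries 1 to 3. The groups overlapped, with Ctrl library 1 the highest. Its log2 fold change was -0.10 (95% interval -0.22 to 0.03; edgeR adjusted p = 0.525), and -0.06 without Ctrl library 1 (adjusted p = 0.762). The FPKM ratio of MDM2 to MDM4 was nearly constant, at 3.03 ± 0.0789 in RBM24 libraries and 2.99 ± 0.0673 in Ctrl libraries (SD, n = 3 each; exact permutation test of the log2 ratio, two-sided, p = 0.6, adjusted over the 4 ratios 0.8).

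**Figure D3:**
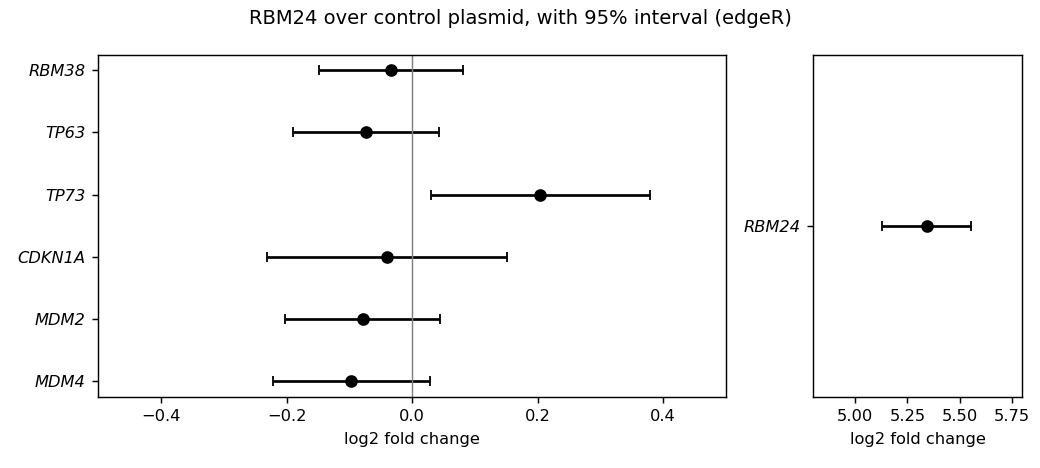
Log2 fold change of RBM24 over Ctrl libraries from edgeR, with 95% intervals, for 6 genes (left panel) and RBM24 (right panel, on another range of the axis). The intervals of RBM38, TP63, CDKN1A, MDM2 and MDM4 include 0, that of TP73 runs from 0.03 to 0.38 before adjustment for the number of genes, and RBM24 is at 5.34.

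**Figure D4:**
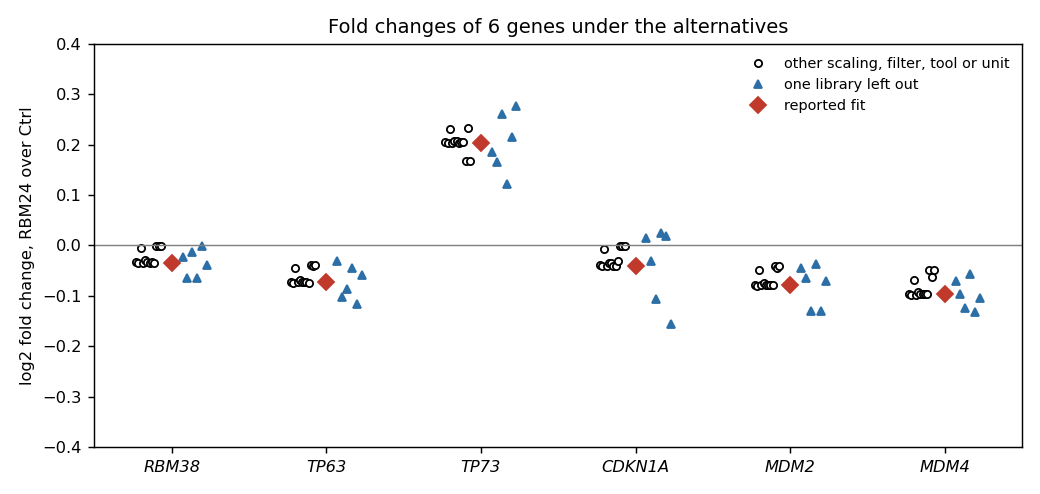
Log2 fold change of RBM24 over Ctrl libraries for 6 genes in the reported fit (red diamonds), under other scalings, filters, tools or units (open circles) and with 1 library left out (blue triangles). TP73 stays between 0.12 and 0.28, RBM38, TP63, MDM2 and MDM4 stay below 0, and CDKN1A lies on both sides of 0 (-0.16 to 0.02).

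MDM2 and TP73 also hold the p53 response element in a promoter, shown because through it both genes are known to answer to the p53 family. The consensus, a pair of 10-base repeats that reads alike on both strands, was searched in RefSeq promoter windows (GRCh38.p14, from 250 bases before to 50 after each start) with no spacer and at most 1 mismatch in each repeat. The core C and G of each repeat had to match, so a mismatch was allowed only at the other bases. All 7 genes matched a window by symbol, 12 windows in all. Elements outside these windows, with a spacer or with a mismatch at a core C or G could not be found. The lack of a match therefore does not mean that a gene lacks an element. The 2 windows with a match begin at internal starts, and their elements, in capitals, are below; 0.194% of the 27305 genes with a window have such a match.
MDM2, chr12:68808918-68808947: gagctGGTCAAGTTCAGACACGTTCcgaaa
TP73, chr1:3690591-3690620: tcaccGGGCAAGCTGAGGCCTGCCCcggac
Gene counts do not show which start was used, so the output of these promoters alone was not measured. As a description, MDM2 had a negative log2 change and TP73 a positive one, and neither passed the test.

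Beyond the 7 genes, 4 lists of the pathway were examined. PERP is in both the p53 and the p63 target lists. GDF15 is in both the p53 target list and the list of other mRNAs reported for RBM24 or RBM38. Of 32 regulators of the p53 family (ligases, deubiquitinases, kinases, cofactors and ribosomal proteins that bind MDM2), 0 were called in edgeR (1.54% of all genes tested were), 1 had an unadjusted p under 0.05, or 3.12% against 13.0% of all genes tested, and the median log2 change was 0.00. The 4 with the smallest p were the acetyltransferase gene CREBBP (log2 change 0.17, adjusted p = 0.196), the ubiquitin ligase gene HUWE1 (0.10, 0.408), the kinase gene HIPK2 (-0.12, 0.411) and the DNA damage kinase gene ATR (-0.11, 0.508). Groups that did not overlap were found for 2 of the 32, or 6.25% against 18.1% of all genes tested. CREBBP passed without Ctrl library 3 (log2 change 0.25, edgeR adjusted p = 0.0344). DESeq2 also called 0 of the 32, beside 212 genes higher and 160 lower of 13715 with an adjusted p.

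Of 36 tested p53 target genes other than those above, 1 fell and 0 rose, or 2.78% against 1.54% of all genes tested, with a median log2 change of -0.02. The gene that fell was BTG2, an antiproliferative cofactor of mRNA deadenylation. It stood at 7.83, 8.87 and 8.87 CPM in RBM24 libraries 1 to 3, against 11.2, 11.3 and 10.1 CPM in Ctrl libraries 1 to 3 (log2 change -0.35, SE 0.0829; edgeR adjusted p = 0.0466). Every RBM24 library lay below every Ctrl library. The call was at the edge of the threshold and ended under 10 of 18 refits: without RBM24 libraries 1, 2 or 3 (adjusted p = 0.258, 0.116 and 0.0591), without Ctrl libraries 1 or 2 (0.111 and 0.105), with total-count scaling (0.0657), with the replicate number as a block (0.0516) and on FPKM (0.151 to 0.284).

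Of the 36, 9 had an unadjusted p under 0.05 (2 higher, 7 lower), or 25% against 13.0% of all genes tested, and 9 had groups that did not overlap, or 25% against 18.1%. The 3 next to BTG2 by p did not pass. The 14-3-3 sigma gene SFN, which holds cells in G2, had 499, 483 and 461 CPM in RBM24 libraries 1 to 3, against 407, 434 and 381 CPM in Ctrl libraries 1 to 3 (log2 change 0.24, edgeR adjusted p = 0.0509). The autophagy regulator gene DRAM1 had a log2 change of -0.31 (adjusted p = 0.0509), and BBC3, which encodes the BH3-only protein PUMA, had -0.39 (adjusted p = 0.0875). SFN passed in 7 of 18 refits: without Ctrl library 2 (adjusted p = 0.0239), with the replicate block (0.0179), total-count scaling (0.0110), a mean count minimum of 50 (0.0442) or no filter (0.00198), and by limma-voom (0.0344) and DESeq2 (0.00346). DRAM1 passed in 5, without RBM24 library 3 (0.0311) or Ctrl library 3 (0.0112), with upper-quartile factors (0.0490) or no filter (4.80e-05) and by DESeq2 (0.00828). BBC3 passed in 3, without RBM24 library 3 (0.0387) or Ctrl library 3 (0.00124) and with no filter (4.46e-07). By DESeq2, 3 of the list were called: BTG2, SFN and DRAM1. Over all genes DESeq2 called 212 higher and 160 lower, of 13715 with an adjusted p.

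Of 30 p63 target genes, 1 rose and 1 fell, or 6.67% against 1.54% of all genes tested, with a median log2 change of -0.00. An unadjusted p under 0.05 was found for 9 of the 30 (4 higher, 5 lower), or 30% against 13.0% of all genes tested. FAT2, a giant atypical cadherin of basal keratinocytes, stood at 117, 115 and 112 CPM in RBM24 libraries 1 to 3, against 91.1, 92.8 and 101 CPM in Ctrl libraries 1 to 3 (log2 change 0.28, SE 0.0510; edgeR adjusted p = 0.0111). KRT15, a keratin of basal and stem-like epithelial cells, stood at 65.2, 75.0 and 69.8 CPM in RBM24 libraries 1 to 3, against 82.3, 89.6 and 86.0 CPM in Ctrl libraries 1 to 3 (log2 change -0.30, SE 0.0570; edgeR adjusted p = 0.0131). The groups did not overlap in either gene, as in 6 of the 30, or 20% against 18.1% of all genes tested. The call of FAT2 ended without RBM24 library 1 (adjusted p = 0.0599) or 2 (0.0812), that of KRT15 without RBM24 library 1 (0.0951), and both on FPKM (0.110 to 0.336). The adhesion gene NECTIN1 (-0.20, adjusted p = 0.126) and TRIM29 (-0.16, adjusted p = 0.167) did not pass, and the abundant KRT5, at 674 ± 5.63 CPM in RBM24 libraries and 650 ± 32.9 CPM in Ctrl libraries (SD, n = 3 each), had a log2 change of 0.05 (adjusted p = 0.752).

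Of 8 other mRNAs that RBM24 or RBM38 is reported to bind or control, 0 were called in edgeR (1.54% of all genes tested were). DESeq2 called 0 of the 8, beside 212 genes higher and 160 lower of 13715 with an adjusted p. An unadjusted p under 0.05 in edgeR was found for 2 of the 8, or 25% against 13.0% of all genes tested. The median log2 change was -0.03. The MYC oncogene stood at 163, 170 and 171 CPM in RBM24 libraries 1 to 3, against 186, 180 and 182 CPM in Ctrl libraries 1 to 3 (log2 change -0.12, edgeR adjusted p = 0.276). ELAVL1, which encodes the mRNA-stabilising protein HuR, stood at 172, 174 and 176 CPM in RBM24 libraries 1 to 3, against 159, 162 and 161 CPM in Ctrl libraries 1 to 3 (log2 change 0.12, edgeR adjusted p = 0.282). In both genes the groups lay apart, as in 18.1% of all genes tested, and the difference did not pass the test. The tight junction gene TJP1 (log2 change 0.07, edgeR adjusted p = 0.650) had overlapping libraries.

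**Figure D5:**
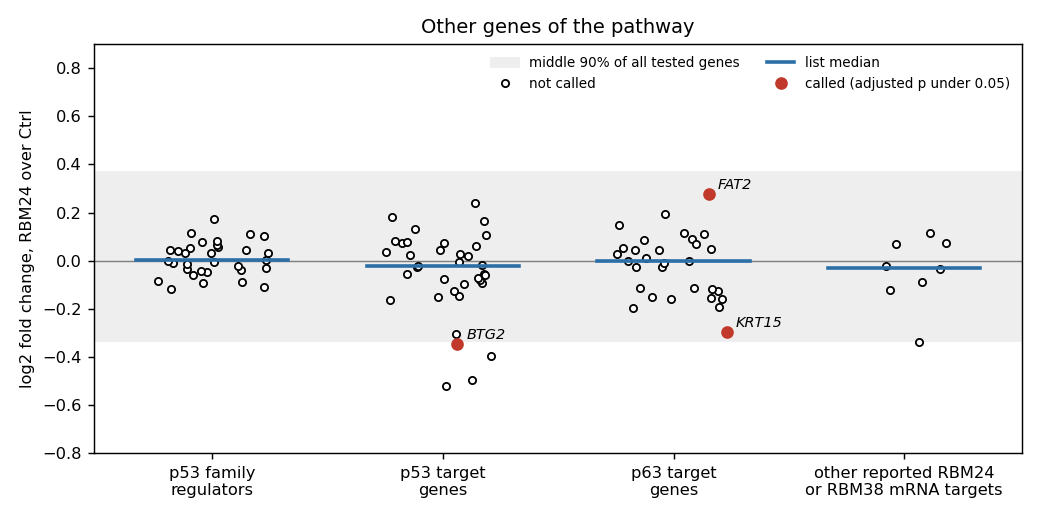
Log2 fold change of RBM24 over Ctrl libraries for each tested gene of 4 lists (points, spread sideways for legibility), with the list medians (blue lines) and the middle 90% of all genes tested (grey band, -0.33 to 0.37). BTG2, FAT2 and KRT15, in red, are the called genes, and the medians lie between -0.03 and 0.00.

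The label of squamous carcinoma was checked with markers. KRT5, KRT17, CDH1 and SFN were abundant in all libraries, while KRT14 had only 220 to 297 counts per library, and the summed CPM of the 10 squamous markers was 1583 to 1601 in RBM24 libraries and 1430 to 1542 in Ctrl libraries, with 0 of 10 called (1.54% of all genes tested were) and 5 of 10, or 50%, with groups that did not overlap, against 18.1% of all genes tested. An unadjusted p under 0.05 in edgeR was found for 4 of the 10 (3 higher, 1 lower), or 40% against 13.0% of all genes tested. SFN and TRIM29 are among these genes. Since SFN is also a listed p53 target, and TRIM29, KRT5 and KRT14 are listed p63 targets, the shares of these lists are not independent. Of markers of other cells, the immune genes PTPRC and CD3E had 0 to 3 counts per library, the fibroblast genes COL3A1 and DCN 0 to 5 and the muscle gene MYH7 0 to 3. More counts were found for the muscle genes TTN (20 to 40 per library) and TNNT2 (9 to 25), the fibroblast gene LUM (21 to 37) and the immune gene LYZ (3 to 16). The muscle genes MYOD1 and MYOG had no row in the count table. The fibroblast-associated COL1A1 (540 to 803 counts per library) and PDGFRB (151 to 226) were detected, as was COL1A2 at 50 to 68 counts in RBM24 libraries and 24 to 40 counts in Ctrl libraries (log2 change 0.66, edgeR unadjusted p = 0.0082, adjusted p = 0.182). Also CD14 (17.8 to 18.8 CPM in RBM24 libraries, 17.5 to 20.3 CPM in Ctrl libraries) and the endothelial cadherin gene CDH5 (8.31 to 9.13 CPM in RBM24 libraries, 8.85 to 11.1 CPM in Ctrl libraries) were detected. Over whole lists, those with few counts included, summed CPM was 16.0 to 16.9 in RBM24 and 13.7 to 16.4 in Ctrl libraries for 6 fibroblast markers, 17.9 to 19.1 in RBM24 and 17.5 to 20.4 in Ctrl libraries for 5 immune markers, 8.70 to 9.72 in RBM24 and 9.53 to 11.7 in Ctrl libraries for 4 endothelial markers, and 0.601 to 1.22 in RBM24 and 0.818 to 1.04 in Ctrl libraries for 6 muscle markers. Their part in the results was not tested.

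By the root mean square difference of log2 CPM standardised over the 6 libraries, among 11030 genes compared, the profiles most like that of RBM24 were those of AKR1C1, an aldo-keto reductase gene (difference 0.0849), the RNA demethylase gene ALKBH5 (0.111), ANKRD1 (0.120), KCTD2 (0.122) and GADD45B (0.131). Any gene with a clear gap between the groups scores close to RBM24 on this measure. AKR1C1 stood at 19.5, 17.6 and 20.2 CPM in RBM24 libraries 1 to 3, against 5.60, 6.30 and 5.77 CPM in Ctrl libraries 1 to 3, with RBM24 library 2 the lowest of its group in both genes. Since AKR1C1 was picked for its likeness over these same 6 libraries, that shared low library is not a separate result. The order of the Ctrl libraries differed between the genes. For the members without a gap, the nearest were GM2A and CD276 for RBM38, MAGT1, KIAA1586 and UMAD1 for TP63, SLC66A2, ING5 and BAG3 for TP73, TAP1, POLR2C and ARHGEF3 for CDKN1A, GLCE, AMD1 and TRPM7 for MDM2, and ZDHHC13, GTF3C3 and PDK1 for MDM4, with differences between 0.0369 and 0.234.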

How the data were processed

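RNA of 6 CAL27 libraries was sequenced as 150-nt pairs, per the labels' protocols. HISAT2 and GRCh38 are named as aligner and build per the submitters' processing notes; no version, gene counter, annotation or strand setting is named there. The authors deposited raw counts per gene, and FPKM values, which are divided by gene length and a library total and rounded to 2 decimals. The control libraries were taken from the NC columns and the overexpression libraries from the OE_RBM24 columns. The 7 genes, the lists and the tests were chosen with earlier results of these data known.

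Counts were tested in R 4.3.3 with edgeR 4.0.16 (filterByExpr, TMM scaling, quasi-likelihood F test, group as the only term, 4 residual degrees of freedom, Benjamini-Hochberg over 17887 genes, called at 0.05); the 95% intervals come from the SE of the log2 fold change. CPM use the TMM-scaled totals. Alternatives were other scalings and filters (among them a mean count minimum of 50), limma 3.58.1 (voom, and log2(FPKM + 1) or log2(FPKM + 0.1)), the replicate number as a block, each library left out, RBM24 left out and a threshold of 0.01, and DESeq2 1.42.0. Fold changes on FPKM are on the log2(FPKM + pseudocount) scale and understate low genes. No 2 libraries were copies (chi-square per gene 4.52 to 33.3). Coordinates and 3′ UTRs come from GENCODE 29 on GRCh38, with the transcript of best APPRIS rank, then support level, then length. Named genes are the 7 members, every called gene of a list (up to 8), the 4 smallest p of each list, and the 3 genes (5 for RBM24) of most similar profile among those averaging 2 or more on the log2 CPM scale. A few genes that this rule names are not reported here.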

Additional observations from a re-analysis of the deposited data

How the results depend on the processing

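Over 19 alternatives, RBM24 stayed called wherever it was fitted, at a log2 fold change of 4.24 to 5.50, and 0 alternatives called any of the other 6 genes. The signs of RBM38, TP63, TP73, MDM2 and MDM4 held throughout (-0.06 to -0.00, -0.12 to -0.03, 0.12 to 0.28, -0.13 to -0.04 and -0.13 to -0.05). CDKN1A ranged from -0.16 to 0.02 with 1 library left out and turned positive without RBM24 library 1 (0.014), Ctrl library 1 (0.024) or Ctrl library 2 (0.018). Over all genes, 153 were called higher and 122 lower. The counts were 305 and 341 with no filter on low counts, 46 and 4 on log2(FPKM + 1) values, 57 and 5 on log2(FPKM + 0.1) values, 15 and 4 on log2(FPKM + 1) when low genes stayed in, 59 and 26 at a threshold of 0.01, and between 61 and 171 higher and between 29 and 198 lower with 1 library left out. Scaling by total counts alone gave 223 and 106, and DESeq2 gave 212 and 160, of 13715 genes with an adjusted p. Of the p53 target genes, 4 were called with no filter, 3 by DESeq2, 2 with upper-quartile factors, with a mean count of at least 50 or by limma-voom, and 0 on each FPKM setting or at 0.01, and between 0 and 3 with 1 library left out. Of the p63 target genes, 3 were called with no filter (CLDN1 also, log2 change -0.19, adjusted p = 0.0293), 0 on each FPKM setting or at 0.01, and between 0 and 2 with 1 library left out; of the regulators, 0 or 1. The cause of these shifts was not tested. The replicate block gave 158 higher and 135 lower, with log2 changes of 5.35 for RBM24, -0.03 for RBM38, -0.07 for TP63, 0.21 for TP73, -0.03 for CDKN1A, -0.08 for MDM2 and -0.10 for MDM4; of the genes named from the lists it ended the call of BTG2 and called SFN (adjusted p = 0.0179). Whether same-numbered libraries were paired is not known, since the origin of the replicates is not given. Their deviations from the group means correlated over genes at 0.00724, 0.0555 and -0.00039, and 0 of 6 libraries correlated best with their own number. Correlations between other numbers were low as well (-0.109 to 0.0914), so these values cannot settle the pairing.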

Other observations

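The genes that flank the 7 members on the chromosome were read from GENCODE 29 as the nearest tested gene on each side. Of these 14 neighbours, 0 were called in edgeR (lowest adjusted p = 0.286), where 1.54% of all genes tested were called. An unadjusted p under 0.05 in edgeR was found for 1 of the 14, where 13.0% of all genes tested had one. CAP2, an actin-binding protein gene 99.3 kb from RBM24, had 2422, 1945 and 2372 counts in RBM24 libraries 1 to 3, against 1996, 1853 and 2431 counts in Ctrl libraries 1 to 3. Its log2 fold change was 0.00 (95% interval -0.13 to 0.13), beside 5.34 for RBM24. The neighbour with an unadjusted p under 0.05 was P3H2, a prolyl hydroxylase gene 59.4 kb from TP63, with a log2 change of 0.15 (edgeR adjusted p = 0.286; named after its value was seen). Antisense genes that overlap the members were near the limit of detection, with 0 to 5 counts per library for RBM38-AS1, 1 to 9 for TP73-AS3 and 0 to 3 for TP73-AS1.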
